A study of Mus musculus with 4 samples.

Results

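The tumour necrosis factor (TNF) superfamily ligands described here are the 10 genes Tnf, Lta, Ltb, Tnfsf11, Tnfsf8, Tnfsf9, Tnfsf10, Tnfsf14, Cd40lg and Fasl, taken as a named list of 10 among the 31053 genes of the expression matrices. The CD4 T cells studied were sorted from mice that had developed GVHD, the graft-versus-host disease, in which grafted T cells injure host organs. The donors were BALB/c RAG2-/- TS1 Tg, so every donor T cell lacked RAG2 and carried the TS1 transgenic T cell receptor, and the strain of the recipients is not given in the sources used here. The cells were taken 4 weeks after the transplant, from the spleen, the skin, the colon, and 2 compartments of the small intestine (intraepithelial lymphocytes and lamina propria). These 5 compartments were hashtagged and pooled into 1 droplet library for each of 2 replicates, and the labels do not say whether the replicates came from separate animals. No cell was given a tissue of origin here, so a difference between classes of cells cannot be told apart from a difference in tissue.

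The ligands were read in 34918 cells, 19020 of replicate 1 and 15898 of replicate 2, each with at least 1000 unique molecular identifiers (UMIs, 1 count for each captured RNA molecule), 500 genes and at most 10% mitochondrial UMIs. Median depth was 2688 UMIs per cell in replicate 1 and 3699 in replicate 2. Since a deeper cell shows more genes, each cell was thinned at random to 1500 UMIs, which left 15288 and 14855 cells. Of these, 14981 and 14602 held a UMI of Cd3e, Cd3d or Cd3g and were not marked as another cell type. The libraries shared 599 barcodes of kept cells, with a median of 20198 UMIs in the library with more and 1319 UMIs in the one with fewer. Each of the 50 ligand results by class below kept its direction and its side of the threshold without the shared barcodes.

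TNF superfamily ligands are trimeric proteins, most of them made as membrane proteins, which cluster receptors on a neighbouring cell. Receptors with a death domain can start caspase-driven cell death, and the others recruit TRAF adaptors and switch on NF-kB. On T cells the ligands serve as messages to other cells: Cd40lg licenses B cells and dendritic cells, Tnfsf11 (RANKL) drives osteoclasts and intestinal M cells, and Fasl and Tnfsf10 (TRAIL) kill sensitive targets. Tnf, Fasl and related ligands are long-known mediators of tissue injury in GVHD.

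The classic members Ltb, Tnf and Lta are neighbours on mouse chromosome 17 (mm10). Ltb lies at positions 35194439 to 35196320 on the plus strand, Tnf at 35199381 to 35202007 and Lta at 35203165 to 35205351 on the minus strand, so that Ltb and Tnf meet tail to tail 3060 bases apart and Tnf starts 1157 bases beyond the end of Lta. All 3 genes are protein coding and lie within 10913 bases. Their promoters are shown because these neighbours behaved differently across the cells, as given below. The runs are the 250 bases before the RefSeq start site (GRCm38.p6, the same build), read 5′ to 3′ on the gene's strand, and capitals mark a match to the kappaB consensus, the binding motif of NF-kB. The GENCODE start of Ltb falls inside its window. The windows lie at chr17:35194257-35194506 for Ltb, chr17:35202008-35202257 for Tnf and chr17:35205352-35205601 for Lta.
Ltb: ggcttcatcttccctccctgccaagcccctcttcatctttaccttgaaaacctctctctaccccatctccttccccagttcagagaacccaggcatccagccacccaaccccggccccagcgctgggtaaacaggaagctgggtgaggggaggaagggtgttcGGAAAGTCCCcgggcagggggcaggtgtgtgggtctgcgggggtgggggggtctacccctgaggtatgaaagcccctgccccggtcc
Tnf: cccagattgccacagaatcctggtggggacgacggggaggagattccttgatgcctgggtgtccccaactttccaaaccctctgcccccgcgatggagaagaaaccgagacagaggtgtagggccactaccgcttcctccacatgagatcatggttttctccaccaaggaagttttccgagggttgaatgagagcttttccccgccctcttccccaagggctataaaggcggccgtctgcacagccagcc
Lta: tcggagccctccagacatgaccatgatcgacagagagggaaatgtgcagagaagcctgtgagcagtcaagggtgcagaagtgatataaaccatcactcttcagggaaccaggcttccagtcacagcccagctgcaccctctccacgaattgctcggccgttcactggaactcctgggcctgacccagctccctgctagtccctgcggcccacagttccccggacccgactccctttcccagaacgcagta

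Promoters of 8 of the 10 ligands were matched, all but those of Cd40lg and Tnfsf9. Over windows that run from 250 bases before the start to 50 after it, and on both strands, the kappaB consensus was present in the promoter of Ltb, where it begins 87 bases before the start, and in none of the other 7, while 4.51% of all 32851 promoters held one. The AP-1 motif TGANTCA was present in the promoter of Tnfsf14, against 7.81% of all promoters. TATAAA was present in 3 of the 8, beginning 29 bases before the start in Tnf, 32 in Tnfsf11 and 167 in Lta, against 13.6% of all promoters. A match is a run of letters and does not show binding, and a lack of one speaks only of these letters in this window.

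Ltb, which encodes the membrane anchor of the lymphotoxin heterotrimer, was the most abundant of the 10 ligands in these pools. In thinned cells its level was 593 CPM (the UMIs of a gene scaled to a common total of all UMIs) in replicate 1 and 683 CPM in replicate 2, or 638 ± 63.3 CPM (SD, n = 2 libraries), and 52.5% of cells held a UMI. Tnf followed at 177 and 170 CPM with a UMI in 17.4% of cells. UMI counts of 3′ ends hold 1 count for each captured molecule, so levels were not divided by gene length.

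The middle of the order was close. Tnfsf8 (CD30 ligand) averaged 126 ± 1.60 CPM and Fasl 119 ± 13.6 CPM, and their library values overlapped. Cd40lg at 86.7 ± 6.64, Lta (lymphotoxin alpha) at 71.2 ± 16.4, Tnfsf11 at 68.7 ± 11.2 and Tnfsf10 at 61.3 ± 2.21 CPM formed a run in which each overlapped its neighbour. Tnfsf9 (4-1BB ligand) at 36.8 ± 4.19 CPM and Tnfsf14 (LIGHT) at 13.1 ± 0.203 CPM lay below that run in both libraries.

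Ligands of similar level were spread differently over cells. Cells with Lta held 1.57 and 1.60 Lta UMIs on average in replicates 1 and 2, with up to 24 and 13 UMIs in a single cell, and Lta was found in 6.73% of cells. Cells with Tnfsf10 held 1.07 and 1.06 UMIs, never more than 3, and 8.63% of cells had one. The 1% of cells richest in Tnf held 20.8% and 22.1% of its UMIs, and up to 27 and 28 UMIs in a cell. Fasl had at most 4 UMIs in any cell, and the richest 1% of cells held 13.4% and 11.9% of its UMIs.

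Free RNA in the droplets held the ligands too. In barcodes under 100 UMIs, Tnf, Lta, Ltb and Tnfsf9 were higher than in all kept cells at full depth in both libraries, and Cd40lg, Tnfsf11, Tnfsf10 and Tnfsf14 were lower in both. In those barcodes Tnf was at 198 and 190 CPM in replicates 1 and 2, against 150 and 146 CPM in the cells, and Lta at 112 and 99.8 CPM, against 72.9 and 50.8 CPM. Cd40lg was lower in those barcodes, at 36.6 and 38.7 CPM, against 68.4 and 80.2 CPM in cells. Cells marked as epithelial, whose median full depth was 3104.5 and 38050.5 UMIs, and as erythroid, at 5218 and 3092 UMIs, serve as a background for the cells marked for no such list, at 3134 and 3847 UMIs. Of 76 epithelial cells, 13.2% held a Tnf UMI (exact 95% interval 6.49 to 22.9%) and 7.89% a Tnfsf10 UMI (2.95 to 16.4%). The intervals of Tnf, Tnfsf10, Cd40lg, Lta, Tnfsf11, Tnfsf9 and Tnfsf14 in these cells include their shares in all cells. These 7 ligands were therefore not separated from the epithelial background. Ltb was in 13.2% of the epithelial cells (6.49 to 22.9%), Tnfsf8 in 3.95% (0.822 to 11.1%) and Fasl in 0 of 76 (exact upper bound 4.74%, and 3.95% at a limit of 3 counts), and these 3 intervals lay under the shares in all cells. The epithelial cells were no clean background, since 48.7% of them also held a Cd3e UMI and 25.0% a Trac UMI. In the 39 erythroid cells Tnf was in 2.56% (0.0649 to 13.5%) and Lta, Tnfsf8, Tnfsf9, Tnfsf14 and Fasl were in 0 (exact upper bound 9.03%, and 7.69% at a limit of 3 counts). Of these, the intervals of Tnf, Tnfsf8 and Fasl lay under their shares in all cells. Of 189 cells marked as neutrophils, 48.1% held a Cd3e UMI. Their intervals lay under the mean shares in all cells for every ligand but Tnf and Tnfsf14. Cd40lg was in 1.59% of them (0.329 to 4.57%) and Tnf in 13.8% (9.19 to 19.5%).

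**Figure D1:**
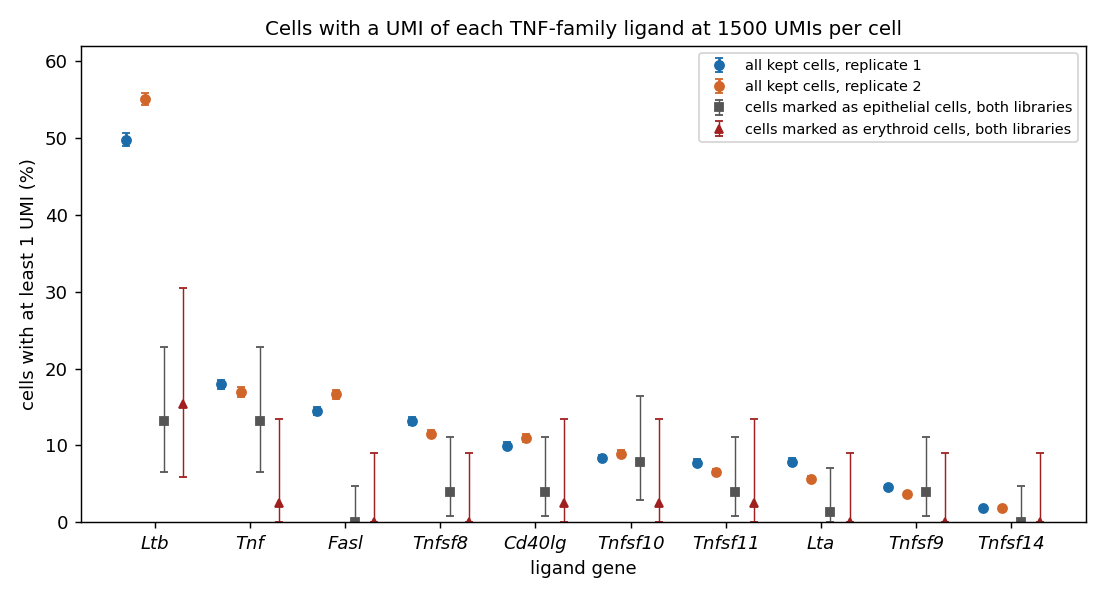
Share of thinned cells with at least 1 UMI of each ligand (y axis, percent, with exact 95% intervals for counting error; ligands along the x axis) in the libraries of replicates 1 and 2, beside cells marked as epithelial and as erythroid. Ltb stands at 49.8% and 55.1% and Tnfsf14 at 1.84% in both libraries, and the intervals of the background cells are wide.

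Classes of cells were set by at least 1 UMI of a marker gene in the thinned cell and compared with all other cells of the same library. A class gene was left out of its own comparison, and each comparison rests on 4 sums of counts with 1 residual degree of freedom. The p-values therefore rest on a spread estimated across genes and compare these 2 pooled libraries, with no cover for variation between animals. Every adjusted p comes from edgeR's quasi-likelihood test over all genes with Benjamini-Hochberg adjustment, with 0.05 as the threshold. All 10 ligands passed the filter on low counts in every comparison. Fold changes are log2 ratios of the class over the other cells. With 2 libraries, a lack of overlap between class and other cells is only a description, and its share over all genes was not counted. The classes overlap, so that 304 cells of replicate 1 and 173 of replicate 2 with Hspa1a also had Il13 or Csf2.

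Cells with Il13 or Csf2 were the richest in TNF-family ligands. Il13 is a type 2 helper cytokine and Csf2 encodes GM-CSF, which activates myeloid cells, and 1694 and 1378 cells held a UMI of either. In this class 7 of the 10 ligands rose and none fell, where 9.27% of all genes tested rose and 5.57% fell. The median fold change of the ligands was 1.23, against -0.01 over all genes tested.

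The soluble lymphotoxin gene Lta was at 283 and 242 CPM in cells with Il13 or Csf2 of replicates 1 and 2, against 57.8 and 40.9 CPM in the other cells, a fold change of 2.46 ± 0.072 (SE, adjusted p = 3.18e-13). Tnf reached 369 and 374 CPM, against 153 and 149 CPM (1.35 ± 0.057, adjusted p = 3.83e-11). Their neighbour Ltb was at 628 and 729 CPM, against 589 and 678 CPM (0.15 ± 0.050, adjusted p = 0.0653). For Lta and Tnf every class value was above every value of the other cells, while the values of Ltb overlapped.

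Ligands that act on T cells, B cells and antigen-presenting cells rose as well. Tnfsf9, which co-stimulates T cells through 4-1BB, was at 142 and 123 CPM in the class, against 27.0 and 24.7 CPM (fold change 2.41 ± 0.085). Tnfsf11 was at 269 and 222 CPM, against 52.7 and 44.3 CPM (2.39 ± 0.066), and a UMI of it was in 23.1% and 19.6% of class cells, against 5.85% and 5.16% of the others. These fold changes stood beside that of Lta. Tnfsf8 was at 322 and 366 CPM, against 103 and 100 CPM (1.80 ± 0.064), and Cd40lg at 159 and 160 CPM, against 72.4 and 84.4 CPM (1.08 ± 0.075). Tnfsf14 reached 24.01 and 25.6 CPM, against 11.6 and 11.97 CPM (1.12 ± 0.16), from few UMIs.

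The death ligands did not pass. Fasl was at 99.2 and 118 CPM in the class, against 111 and 130 CPM in the other cells (adjusted p = 0.441), and Tnfsf10 at 56.3 and 64.3 CPM, against 60.1 and 62.7 CPM (adjusted p = 0.942). Summed markers of neutrophils were at 911 and 1214 CPM in the class, against 1709 and 2816 CPM, and median mitochondrial shares were 3.36% and 3.17%, against 2.62% and 2.43%. With only cells that had a Cd3 gene UMI and no mark of another type, all 7 rises remained past the threshold. The part of the mitochondrial share was not tested.

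**Figure D2:**
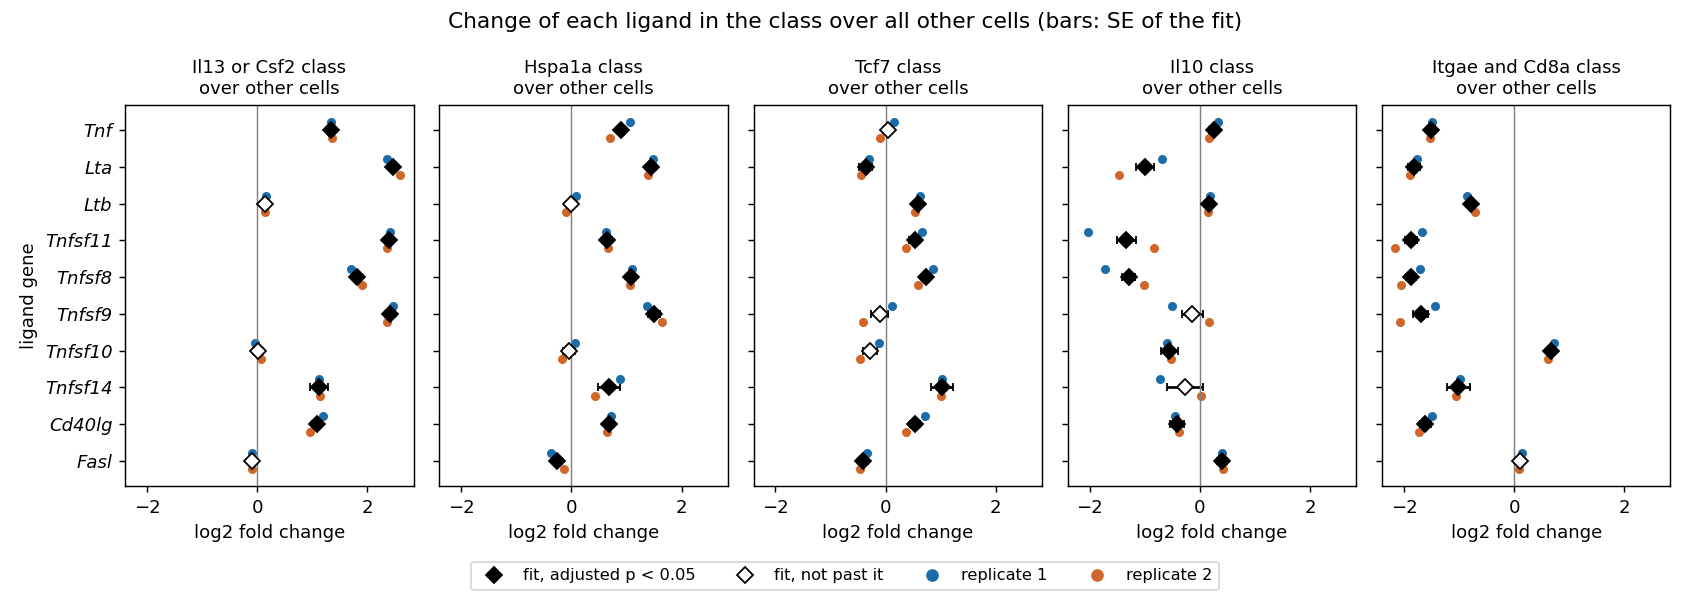
Log2 fold change of each ligand (x axis) in cells of a class over all other cells, for the 5 classes. Diamonds are the fit over both libraries with its standard error, black where the adjusted p was under 0.05, and circles are the libraries of replicates 1 and 2 alone. Lta, Tnfsf9 and Tnfsf11 lie at 2.46, 2.41 and 2.39 in cells with Il13 or Csf2, and 8 ligands lie under 0 in cells with Itgae and Cd8a.

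Cells with Hspa1a showed a like but smaller set of changes. Hspa1a encodes an inducible HSP70 chaperone, and 1408 and 1212 cells held a UMI of it. Of the 10 ligands 7 rose and 1 fell, against 6.63% and 5.56% of all genes tested, and the median fold change was 0.68. Without thinning, where the class is set at full depth, edgeR called 0 of the 10, with 7 at an unadjusted p under 0.05, and 41 genes in all.

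Tnfsf9 was at 90.0 and 91.9 CPM in cells with Hspa1a, against 34.7 and 28.7 CPM in cells without (1.50 ± 0.11, adjusted p = 1.54e-40). Lta was at 199 and 141 CPM, against 70.9 and 52.4 CPM (1.45 ± 0.082), and Tnfsf8 at 247 and 243 CPM, against 115 and 114 CPM (1.08 ± 0.067). Tnf was at 336 and 268 CPM, against 161 CPM in both libraries (0.89 ± 0.061). In all of these the class values lay above those of the other cells. Cd40lg, Tnfsf14 and Tnfsf11 rose by 0.68, 0.68 and 0.65, and the call of Tnfsf14 was lost in 4 of 10 alternatives. Fasl fell by 0.25, at 86.2 and 120 CPM, against 112 and 129 CPM, a call lost with DESeq2, with no library block and without thinning. Basophil or mast cell markers summed to 8.05 and 223 CPM in the class, against 56.7 and 89.1 CPM, so they were higher in the class in replicate 2 only. Median mitochondrial shares were 3.46% and 3.103%, against 2.63% and 2.44%, and their part was not tested.

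Cells with Tcf7 were marked by Ltb rather than by Tnf or Lta. Tcf7 encodes TCF-1, the factor of progenitor-like and central memory T cells, and 873 and 923 cells held a UMI of it. Ltb was at 892 and 974 CPM in these cells, against 575 and 663 CPM in the others (0.58 ± 0.038, adjusted p = 4.55e-14). A UMI of Ltb was in 65.6% and 68.4% of them, against 48.9% and 54.2%. Of the 10 ligands 5 rose and 2 fell, against 4.35% and 4.61% of all genes tested, and without the library block 4 passed.

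Tnfsf14, whose receptor is the herpesvirus entry mediator, was at 25.2 and 25.3 CPM in cells with Tcf7, against 12.2 and 12.4 CPM (1.02 ± 0.20, adjusted p = 4.15e-04). Tnfsf8 was at 223 and 183 CPM, against 121 CPM in both libraries (0.73 ± 0.076), and Cd40lg at 131 and 117 CPM, against 79.0 and 89.7 CPM (0.54 ± 0.094). Tnfsf11 also rose, by 0.53. With at least 2 UMIs of Tcf7 the calls of Tnfsf14, Cd40lg and Tnfsf11 were lost, and DESeq2 did not call Tnfsf14, Tnfsf11 or Fasl. Fasl fell, at 87.8 and 96.1 CPM, against 111 and 131 CPM (-0.41 ± 0.092, adjusted p = 0.00236). Lta fell by 0.36 with an adjusted p of 0.0442, a call that 6 of 10 alternatives lost. Tnf stood at 197 and 161 CPM, against 175 and 170 CPM (adjusted p = 0.871). Neutrophil markers summed to 138 and 495 CPM in the class, against 1710.3 and 2811 CPM, and restricting the cells to those with a Cd3 gene UMI kept the calls of Ltb, Tnfsf14, Tnfsf8, Cd40lg, Tnfsf11 and Fasl. Markers of gamma-delta T cells summed to 379 and 374 CPM with Tcf7, against 248 and 280 CPM. Of the 4 genes of that list, 2 and 1 had no UMI in cells with Tcf7, and 0% of these cells were marked for the list. Median mitochondrial shares were 3.20% and 3.00%, against 2.65% and 2.45%, and the part of either was not tested.

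Cells with Il10 moved in both directions. Il10 encodes the regulatory cytokine interleukin 10, and 614 and 719 cells held a UMI of it, the smallest of the classes. Of the 10 ligands 3 rose and 5 fell, against 4.17% and 3.02% of all genes tested, with a median fold change of -0.34, and without the library block 2 passed. Tnfsf8 was at 38.0 and 61.2 CPM in these cells, against 131 and 128 CPM in the others (-1.29 ± 0.12, adjusted p = 7.09e-23), and Tnfsf11 at 18.5 and 33.4 CPM, against 79.1 and 62.1 CPM (-1.33 ± 0.17). Without thinning neither of these falls was called.

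Lta was at 49.9 and 21.3 CPM in cells with Il10, against 84.1 and 61.5 CPM (-0.99 ± 0.16), and the libraries differed in size, with -0.68 in replicate 1 and -1.47 in replicate 2. The fall of Tnfsf11 was likewise -2.03 in replicate 1 and -0.84 in replicate 2. Both ligands were lower in the class in each library. Tnfsf10 fell by 0.56 and Cd40lg by 0.41, and DESeq2 called neither. Fasl rose, at 136 and 162 CPM, against 108 and 127 CPM (0.41 ± 0.093, adjusted p = 3.47e-04), a call lost with DESeq2, with no library block and without thinning. Tnf and Ltb rose by 0.25 and 0.17 with adjusted p = 0.0411 and 0.0266, calls that 5 and 6 of 10 alternatives lost. Tnfsf9 stood at 27.1 and 36.2 CPM, against 40.3 and 33.7 CPM (adjusted p = 0.822), but was at 0.87 with at least 2 UMIs of Il10 (edgeR adjusted p = 0.0330). Markers of NK or innate lymphoid cells summed to 113 and 100.1 CPM in cells with Il10, against 55.7 and 62.5 CPM. Of the 6 genes of that list, 4 and 5 had no UMI in cells with Il10, so the sums rest on few genes. Neutrophil markers summed to 1410.4 and 448 CPM, against 1629 and 2780.4 CPM. With only cells that had a Cd3 gene UMI and no mark of another type, all 8 calls remained.

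Cells with both Itgae and Cd8a held the fewest ligands. Itgae encodes the integrin chain CD103, which binds E-cadherin of epithelium, and Cd8a is carried by intraepithelial lymphocytes, CD4 cells among them. There were 2323 and 2251 such cells. Of the 10 ligands 8 fell and 1 rose, against 18.2% and 16.0% of all genes tested, and the median fold change was -1.56, against -0.01 over all genes tested.

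Tnf was at 68.0 and 64.0 CPM in these cells, against 196 and 189 CPM in all others (-1.51 ± 0.073, adjusted p = 4.22e-91). Tnfsf8 was at 42.5 and 33.2 CPM, against 142 and 141 CPM (-1.87 ± 0.087), and Tnfsf11 at 26.1 and 15.1 CPM, against 85.7 and 68.9 CPM (-1.87 ± 0.11). No library value of these 3 ligands overlapped between the class and the other cells, and the same held for Lta, Cd40lg and Ltb. Cd40lg was at 31.3 and 30.2 CPM, against 91.1 and 102 CPM (-1.61 ± 0.098). Lta, Tnfsf9 and Tnfsf14 fell by 1.82, 1.70 and 1.02, and the call of Tnfsf14 was lost with DESeq2 and at 2 UMIs. Ltb was at 344 and 434 CPM, against 638 and 727 CPM (-0.78 ± 0.045), so it remained the most abundant ligand of the class.

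Tnfsf10 was the exception. It was at 87.8 and 87.7 CPM in cells with Itgae and Cd8a, against 54.7 and 58.4 CPM in the others (0.67 ± 0.080, adjusted p = 1.66e-15). Its UMIs were in 12.1% and 12.3% of class cells, against 7.67% and 8.31% of the others, while the exact interval of the epithelial background, given above, reaches 16.4%. Epithelial markers summed to 137 and 121 CPM in the class, against 136 and 105 CPM, and 0 class cells were marked as epithelial. Fasl was at 116 and 132 CPM, against 108 and 128 CPM (adjusted p = 0.190). The class had the highest summed level of T cell markers, 14496 and 14107 CPM, against 10599 and 10522 CPM, and summed neutrophil markers of 575 and 734 CPM, against 1808 and 3013 CPM. Median mitochondrial shares were 2.11% and 2.02%, against 2.80% and 2.58%. Before thinning, median depth was 3665 and 4292 UMIs, against 3050 and 3750 UMIs. The part of these differences was not tested. With the restriction to cells with a Cd3 gene UMI, all 9 calls remained.

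Splitting by Itgae and Cd8a together and apart gave the level of each ligand by these genes, as a description without a test. Tnfsf10 was at 87.8 and 87.7 CPM in cells with both genes, 77.2 and 79.3 CPM with Itgae only, 64.9 and 69.1 CPM with Cd8a only, and 47.4 and 52.2 CPM with neither. No other ligand followed that order in both libraries. Tnfsf8 was at 42.5 and 33.2 CPM with both, 154 and 159 CPM with Itgae only, 70.6 and 69.7 CPM with Cd8a only, and 162 and 155 CPM with neither. Tnfsf11 was even higher with Itgae only, at 115 and 98.6 CPM, than with neither, at 92.8 and 72.2 CPM, and was at 44.9 and 33.3 CPM with Cd8a only. In both libraries Tnfsf8 and Tnfsf11 were thus lower with Cd8a only than with Itgae only or neither, and lowest with both. Cells with both genes were 15.2% of thinned cells in each library, but 24.5% and 29.2% without thinning. Cells with Cd8a only can therefore include cells whose Itgae was missed. Fasl was between 107 and 132 CPM in every one of these cells and libraries.

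To compare the classes with each other, cells that met exactly 1 class definition were fitted together with the 9194 and 9070 cells that met none. Of 100 pairs of classes by ligand, 73 passed the threshold, against 17.3% of all genes over the same pairs. Tnf, Lta, Tnfsf9 and Cd40lg each passed in 9 of 10 pairs, and Tnfsf14 in 4, Fasl in 5 and Tnfsf10 in 5. For Tnfsf10, 4 of these 5 pairs set cells with Itgae and Cd8a above each other class, and in the fifth it was lower in cells with Il10 than in cells with Il13 or Csf2, a call that 4 of 10 alternatives lost.

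Cells with Hspa1a alone carried less of most ligands than cells with Il13 or Csf2 alone. Tnfsf11 was at 94.5 and 70.2 CPM in cells with Hspa1a alone, against 288 and 260 CPM (-1.79 ± 0.12, adjusted p = 7.60e-16), and Lta at 154 and 116 CPM, against 272 and 254 CPM (-1.02 ± 0.10). Tnfsf9, Tnfsf8, Tnf and Cd40lg fell by 0.91, 0.73, 0.45 and 0.43, where 2.85% of all genes fell. In cells with Hspa1a alone, Tnfsf9 was still at 69.1 and 80.5 CPM, against 26.0 and 22.6 CPM in cells of no class (1.61), and Lta at 154 and 116 CPM, against 59.0 and 41.8 CPM (1.42). Of the 7 ligands that rose in all cells with Hspa1a, 6 also passed in cells with Hspa1a alone over cells of no class. In that comparison 6.4% of all genes rose, and Tnfsf14 did not pass, at 0.38 (adjusted p = 0.391).

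Ltb set cells with Tcf7 apart from every other class. It was at 935 and 1023 CPM in cells with Tcf7 alone, and its fold change was 0.41 over cells with Il10, 0.46 over cells with Il13 or Csf2, 0.57 over cells with Hspa1a and 0.57 over cells of no class. Cells with Itgae and Cd8a alone stood at -1.34 over cells with Tcf7 alone, and all of these differences passed the threshold. Fasl was at 137 and 154 CPM in cells with Il10 alone, against 112 and 131 CPM in cells of no class (0.34, adjusted p = 0.0429), and 5 of 10 alternatives made that call. It was at 120 and 132 CPM in cells with Itgae and Cd8a alone, and the difference between those classes did not pass (adjusted p = 0.128). Tnfsf10 in cells with Itgae and Cd8a alone was at 88.1 and 87.1 CPM, against 55.6 and 60.9 CPM in cells of no class (0.63 ± 0.085).

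**Figure D3:**
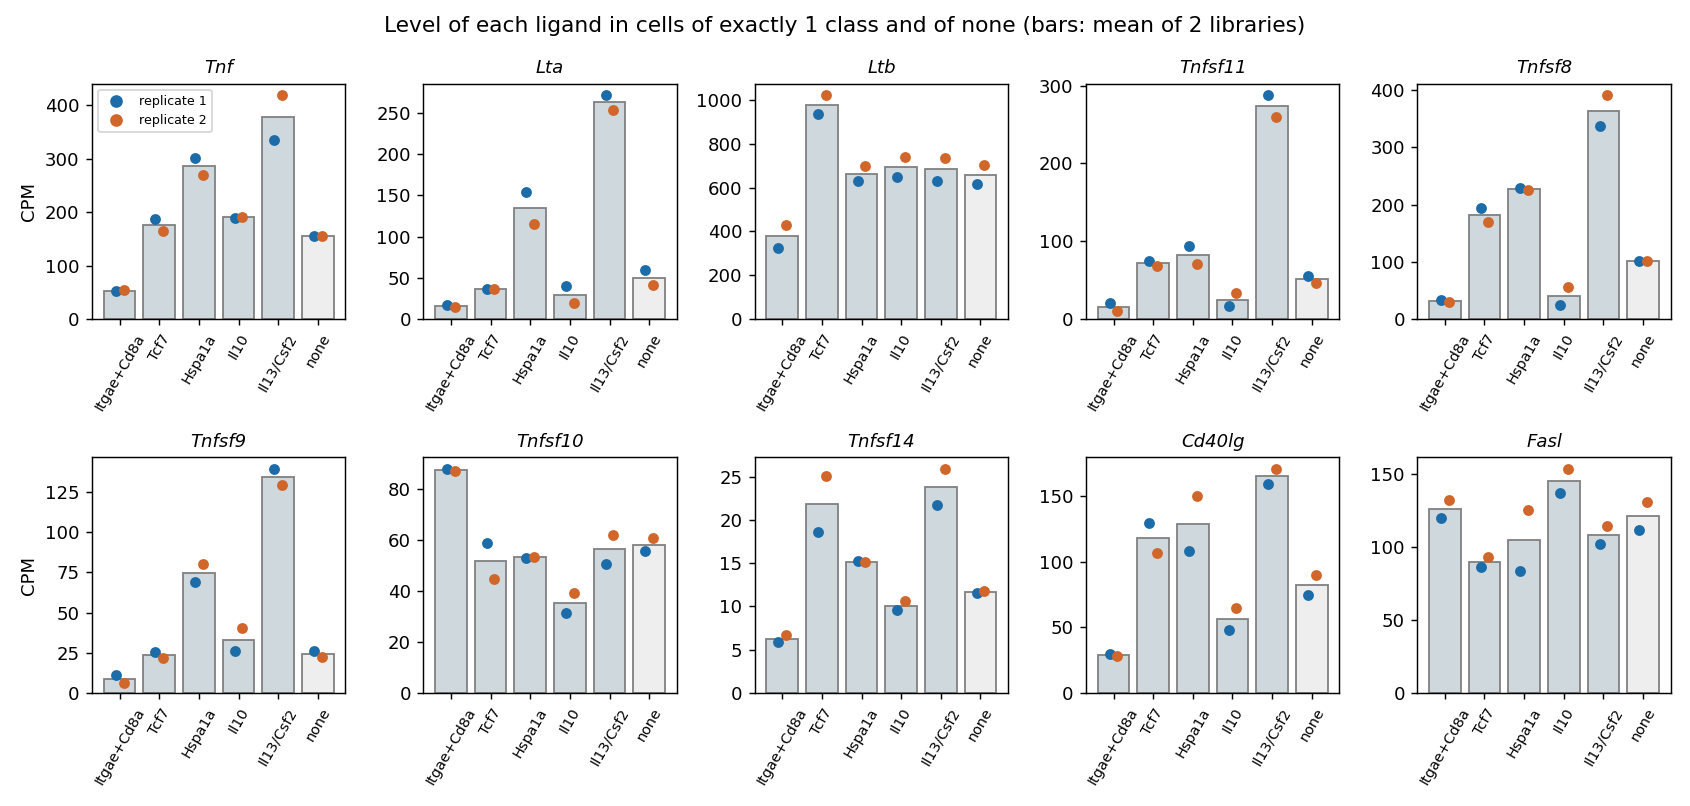
Level of each ligand (y axis, CPM from 0) in cells that met exactly 1 class definition and in cells that met none. Bars are means of the 2 libraries and dots are the libraries. Tnf, Lta, Tnfsf11, Tnfsf8 and Tnfsf9 are highest in cells with Il13 or Csf2, Ltb in cells with Tcf7 and Tnfsf10 in cells with Itgae and Cd8a.

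Most cells held few ligands. After thinning, 24.6% of cells in replicate 1 and 22.5% in replicate 2 had a UMI of none of the 10, and 37.0% and 38.3% had exactly 1. The mean number was 2.14 and 2.08 in cells with Il13 or Csf2, against 1.26 and 1.30 in the other cells. It was 0.911 and 0.928 in cells with Itgae and Cd8a, against 1.44 and 1.46 in the other cells.

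Co-detection was read for all 45 pairs as the number of cells with UMIs of both ligands over the number that independent shares would give, with a Poisson interval for counting error. In 20 pairs the interval lay above 1.2 in both libraries, and in 24 above 1. Pairs of other genes were not counted in this way, so these counts do not set the ligands apart from other genes. All 6 pairs among Lta, Tnfsf11, Tnfsf8 and Tnfsf9 had ratios between 2.14 and 3.23. These 4 were not a set fixed in advance, so that all 6 ratios are high describes the set and tests nothing. Outside them, Tnfsf9 and Tnfsf14 reached 2.51 and 2.32, from 32 and 23 cells, and Tnfsf11 and Cd40lg stood at 2.13 and 2.08. Tnfsf11 and Tnfsf8 were together in 405 cells of replicate 1 where 156 would be given, a ratio of 2.59 (2.35 to 2.86), and in 359 cells of replicate 2 where 111 would be given, a ratio of 3.22 (2.90 to 3.57). Of the cells with Tnfsf11, 34.1% and 37.2% also held Tnfsf8. Among the 6 pairs of these 4 ligands the ratio ran from 1.96 to 2.94 in cells of no class and from 1.30 to 1.90 within cells with Il13 or Csf2. Co-detection was thus also seen in cells without a UMI of the class genes after thinning. Cells with Il13 or Csf2 were 11.1% and 9.28% of thinned cells, but 16.4% and 18.4% of cells without thinning. Cells of no class can therefore include cells whose Il13 or Csf2 was missed. These ratios cannot show whether co-detection reaches beyond cells that express Il13 or Csf2.

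Ratios were lower among the neighbours Tnf, Lta and Ltb. Tnf and Lta had a ratio of 1.60 (1.43 to 1.78) in replicate 1 and 1.76 (1.55 to 1.99) in replicate 2, and 28.7% and 29.8% of cells with Lta held Tnf. Tnf and Ltb were at 1.15 and 1.13, and Lta and Ltb at 1.08 and 1.16. Tnf stood at 1.94 and 1.88 with Tnfsf9 and at 1.70 and 1.55 with Cd40lg. Fasl and Tnfsf8 were the pair whose interval lay under 1 in both libraries, at 0.883 and 0.869. Fasl and Tnfsf10 were at 1.07 and 1.12, with intervals that include 1.

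**Figure D4:**
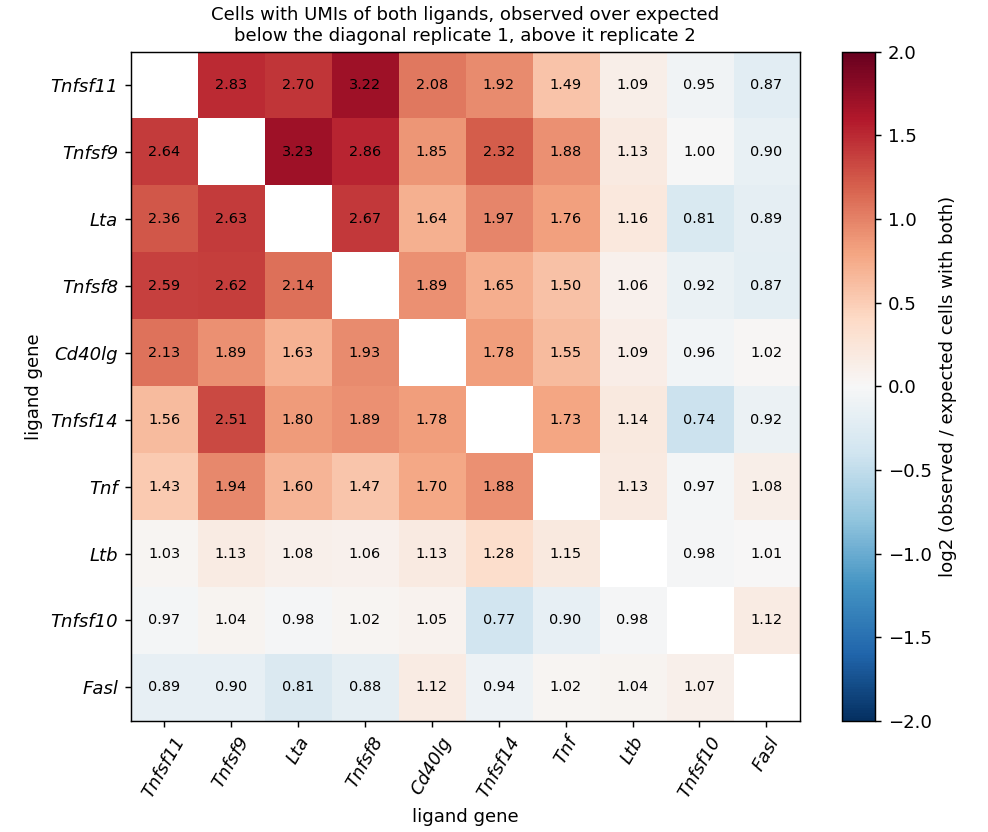
Observed over expected number of cells with UMIs of both ligands for each of the 45 pairs, replicate 1 below the diagonal and replicate 2 above it. The block of Lta, Tnfsf11, Tnfsf8 and Tnfsf9 lies between 2.14 and 3.23, and every pair with Fasl, Tnfsf10 or Ltb lies between 0.740 and 1.28. Pairs with Ltb cannot reach the ratios of that block, because Ltb is in so many cells. Colour gives the log2 of the ratio.

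Partner genes of each ligand were ranked in replicate 1 among 3501 genes and read again in replicate 2. The rank was set by the lower bound of the observed over expected number of cells with both. These ratios share library and cells with the comparisons of classes. Csf2, Tcf7 and Itgae also set classes, so their ratios restate those comparisons and are not separate findings. For Lta, Tnfsf11, Tnfsf8 and Tnfsf9 the first gene was Csf2, with ratios of 2.87, 3.14, 2.35 and 3.62 in replicate 1 and 3.05, 3.26, 2.79 and 3.41 in replicate 2. Atf3, a stress-induced transcription factor, was among the first 3 for these 4, for Tnf (1.82 and 1.63) and for Cd40lg (2.02 and 1.87). Ccl1, a chemokine for CCR8, was among the first 3 for Lta (2.35 and 2.49) and Tnfsf11 (2.53 and 2.70), and Emp1 for Tnfsf8, Tnfsf9 and Cd40lg. Csf1, the macrophage growth factor, stood at 1.93 and 1.78 with Cd40lg, and the HSP70 gene Hspa1b at 1.78 and 1.66 with Tnf.

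The remaining ligands had other partners. Ltb went with Tcf7 (1.32 and 1.24), Klf3 (1.32 and 1.23) and Serpina3g (1.24 and 1.16). Tnfsf10 went with Itgae (1.38 and 1.33), Tcrg-C4 (1.35 and 1.21) and Spp1 (1.37 and 1.36), the gene of osteopontin. Tnfsf14 went with Nfkbid (2.56 and 1.67), Tagap (2.33 and 1.59) and Il18rap (2.21 and 1.48), and the interval of Il18rap in replicate 2 reached down to 0.978. Fasl went with Vps37b (1.26 and 1.22), Frat2 (1.35 and 1.34) and Nr4a2 (1.25 and 1.25), an orphan nuclear receptor induced by T cell receptor signals.

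Receptors and adaptors of the same pathway were read from fixed lists. Of 19 receptors, 16 were tested in each class. The counts below are read against the shares of all genes tested, which were 9.27% up and 5.57% down with Il13 or Csf2, 16.0% and 18.2% with Itgae and Cd8a, 6.63% and 5.56% with Hspa1a, 4.17% and 3.02% with Il10, and 4.35% and 4.61% with Tcf7. In cells with Il13 or Csf2, 6 rose and 1 fell, with a median fold change of 0.62. Tnfrsf9, the receptor of Tnfsf9, was at 239 and 246 CPM, against 92.6 and 84.3 CPM (1.50), and Tnfrsf4 (OX40) at 447 and 394 CPM, against 157 and 156 CPM (1.47). Cd27 fell, at 79.5 and 103 CPM, against 160 and 172 CPM (-0.83). In cells with Itgae and Cd8a, 9 receptors fell and 1 rose. Tnfrsf4 was at 51.7 and 40.0 CPM there, against 214 and 203 CPM (-2.15), and Tnfrsf25, the receptor of TL1A, at 4.02 and 3.85 CPM, against 17.5 CPM in both libraries (-2.11). The one that rose was Tnfrsf1a, the death-domain receptor of Tnf, at 58.8 and 49.2 CPM, against 35.9 and 38.2 CPM (0.58).

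In the other classes fewer receptors passed. With Hspa1a 4 rose and 1 fell, among them Tnfrsf4 (0.38) and Cd27 (-0.55). Cd40 was at 9.47 and 8.25 CPM, against 3.07 and 1.81 CPM (1.84), from few UMIs. With Il10 3 rose and 2 fell: Cd27 was at 312 and 303 CPM, against 144 and 159 CPM (1.09), and Tnfrsf4 rose by 0.66. Tnfrsf9 fell by 0.38 in cells with Il10, but was at 0.012 with at least 2 UMIs of Il10. Cd40 had no UMI in cells with Il10, which allows up to 3.26 and 2.78 CPM, against 3.82 and 2.45 CPM in the other cells, a call that 5 of 9 alternatives lost. With Tcf7 only Tnfrsf25, at 38.9 and 43.3 CPM, against 14.0 and 13.6 CPM (1.56), and Tnfrsf9 (-0.82) passed.

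Of 7 other ligands of the superfamily, Cd70, the ligand of Cd27, passed in 3 classes. It lies between Tnfsf9 and Tnfsf14 on chromosome 17, 38239 bases beyond Tnfsf9. Cd70 was at 57.9 and 59.5 CPM in cells with Il13 or Csf2, against 7.80 and 6.04 CPM (3.12 ± 0.14, adjusted p = 6.72e-11). It was at 4.02 and 2.07 CPM in cells with Itgae and Cd8a, against 15.0 and 12.6 CPM (-2.14), and rose by 0.73 in cells with Hspa1a, a call that 4 of 10 alternatives lost. Tnfsf4 (OX40 ligand) was at 13.4 and 11.1 CPM with Il13 or Csf2, against 5.84 CPM in both libraries (1.13), and at 2.17 and 0 CPM with Il10, against 6.86 and 6.65 CPM. Of 7 listed, 4 were tested in the classes set by Hspa1a, Il10 and Il13 or Csf2, and 3 in the others.

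All 26 adaptor, death-pathway and NF-kB feedback genes were tested. In cells with Il13 or Csf2, 14 rose and 2 fell. Nfkb1 was at 265 and 267 CPM, against 125.4 and 126.4 CPM (1.12), and Nfkbia, the inhibitor that NF-kB itself induces, at 2221 and 2115 CPM, against 1016 and 1131 CPM (1.06). Casp8 and Ikbkb fell by 0.57 and 0.40. In cells with Itgae and Cd8a, 12 fell and 4 rose, the rises being near the share over all genes, with Nfkbia at 477 and 408 CPM, against 1270 and 1367 CPM (-1.54), Nfkb1 at -1.05, and Traf5 and Casp8 at 0.75 and 0.44. The counts were 4 up and 3 down with Hspa1a, led by Traf1 (0.56) and Nfkbia (0.56), 6 up and 1 down with Il10, led by Rel (0.60) and Nfkb2 (0.60), and 2 up with Tcf7, namely Traf1 (0.28) and Nfkbia (0.27). With Hspa1a, Traf4 and Casp8 fell by 0.41 and 0.38, and with Il10 Tnfaip8 fell by 0.43. The calls of Traf4, Casp8, Tnfaip8 and, with Il10, Nfkb2 were lost with DESeq2 and with no library block, and those of Traf1 and Nfkbia with Tcf7 with no library block and at 2 UMIs. None of the receptor, ligand, adaptor or RNA-control genes named as called with Hspa1a was called without thinning.

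Genes that cut ligands from the membrane or destabilise their RNA were read as a list of 9, against the shares of all genes given with the receptors. Rhbdf2, which guides the TNF sheddase ADAM17, was at 26.4 and 24.2 CPM with Il13 or Csf2, against 13.9 and 12.6 CPM (0.98), and Zc3h12a, which encodes the RNase regnase-1, at 87.8 and 93.9 CPM, against 46.4 and 56.6 CPM (0.87). In that class 6 of the 9 rose and none fell. In cells with Itgae and Cd8a none rose and 3 fell, where 16.0% of all genes rose and 18.2% fell. Among the 3 were Zfp36l2, at 220 and 174 CPM, against 682 and 533 CPM (-1.59), and Zc3h12a (-1.23). Zfp36l2 rose in cells with Tcf7, at 974 and 743 CPM, against 590 and 461 CPM (0.69), as did Zfp36l1 (0.60). With Hspa1a 5 rose, led by Rhbdf2 (0.76) and Zfp36 (0.62), and with Il10 Zc3h12a (0.62) and Zfp36 (0.42) rose and Rhbdf2 fell by 1.12. The rise of Zc3h12a with Il10 turned to -0.075 without thinning, and DESeq2 did not call the change of Rhbdf2 with Hspa1a or Il10.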

How the data were processed

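Single-cell libraries were made with the 10x Genomics 3′ v3 chemistry, and the authors deposited raw UMI counts per gene and barcode from Cell Ranger 3.1.0 against mm10, per the file headers and the submitters' processing notes. Nothing was normalized by the authors. Each of 2 expression libraries was used, and the 2 hashtag libraries were not used here. Replicates 1 and 2 held 89427990 and 108082997 UMIs. Cells were kept as stated above and thinned to 1500 UMIs (seed 20). Doublets were not called; as a guard, the fits were repeated without the 8% of cells richest in UMIs.

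Counts were summed per library and class and tested with edgeR 4.0.16 in R 4.3.3 (TMM, filterByExpr, library as block, because class and other cells share a library), across all genes with Benjamini-Hochberg adjustment. The fit over exclusive classes had 12 sums and 5 residual degrees of freedom. Shares carry Clopper-Pearson and co-detection Poisson 95% intervals, which cover counting error only. A cell was marked as another type with 10 UMIs over 3 genes of its list. The test was also run on counts simulated from the means of these data, and its outcome is not used here.

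The fits were repeated with DESeq2 1.42.0, RLE scaling, full-depth cells, a second thinning (seed 21), no replicate block, no filter on low counts, T cells only, 2 UMIs of the class gene, the doublet alternative, each library left out and, chosen after seeing the data, leaving out shared barcodes. The members, gene lists and classes were chosen with earlier results of these data known. Named genes were the 10 members, the 3 partners of each with the highest lower bound of co-detection in replicate 1 among genes in at least 5% of cells, and from each list up to 2 rises and 2 falls per class. Gene positions are from GENCODE vM21 and promoters from RefSeq.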

Additional observations from a re-analysis of the deposited data

How the results depend on the processing

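The 7 rises in cells with Il13 or Csf2 were called under all 10 alternatives that give a test. Leaving out a library left no residual degrees of freedom, so its fold changes carry no test. Genes called with DESeq2 were 1244 for Itgae and Cd8a, 307 for Tcf7, 351 for Hspa1a, 227 for Il10 and 587 for Il13 or Csf2. With no replicate block they were 2368, 251, 415, 225 and 803. Without thinning they were 7281 for Itgae and Cd8a, 3113 for Tcf7, 41 for Hspa1a and 325 for Il10, and with at least 2 UMIs of the class gene 1935 for Itgae and Cd8a, 316 for Tcf7 and 468 for Il10. In the main fit they were 3855, 1009, 1401, 823 and 1696. Ligands called for Tcf7 were 3 with DESeq2, 4 with no replicate block and 3 at 2 UMIs, against 7. For Hspa1a they were 0 without thinning, against 8, and for Il10 3 with DESeq2, 2 with no replicate block and 2 without thinning, against 8. Over exclusive classes 67 of 100 pairs were called with no replicate block, against 73, and the share of all genes with no replicate block was not counted there. The summed level of the ligands was 1394 CPM, 1215.6 CPM without thinning and 1449.5 CPM without the cells with most UMIs. The cause of these shifts was not tested.

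Some fold changes turned in direction. With at least 2 UMIs of the class gene, Tnf was at -0.43 for Tcf7, Tnfsf10 at 0.16 for Hspa1a and -0.16 for Il13 or Csf2, and for Il10 Tnfsf9 was at 0.87 (adjusted p = 0.0330 with edgeR), Tnfsf14 at 0.51 and Tnfrsf9 at 0.012. For Il10 without thinning, Tnf was at -0.12, Ltb at -0.019 and Zc3h12a at -0.075, and in the fit over exclusive classes Tnf over cells of no class was at -0.0071. With a second thinning Tnfsf9 and Tnfsf14 were at 0.042 and 0.25 for Il10. Tnf for Tcf7 was at -0.015 without the cells with most UMIs, and Tnfsf10 for Il13 or Csf2 at -0.014 with no low-count filter. Tnfsf14 rested on 297 and 295 UMIs, the fewest of the ligands, which limits its splits.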
